A study of Mus musculus with 35 samples.

Results

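Microglia of mice in recovery from TDP-43 disease were compared with microglia of mice in late disease, using the 7 libraries labelled Recovery and the 7 labelled LateDisease, 14 of the 35 libraries of the series. Members were taken from the phenotype label and the column code, not from any measured value. All 14 mice were rNLS8, genotype (+/+), which carry both NEFH-tTa and tetO-208-hTDP43 on a mixed background labelled C57BL/6J X C3HeJ F1. They were kept on doxycycline until 8 to 12 weeks of age. Late disease mice then spent 6 weeks without doxycycline, and recovery mice spent 6 weeks without it followed by 1 week with it again. The promoter of the neurofilament heavy chain gene drives the transactivator in neurons, so the transgene is not switched in the microglia themselves. Recovery comprised 4 females and 3 males, and late disease 3 females and 4 males. The levels of 14 control libraries (6 rNLS8 mice always on doxycycline and 8 (-/-) mice on 3 diets) are given below as reference values. Of the (-/-) mice, 4 spent 2 weeks without doxycycline and 1 spent 6 weeks without it. The other 3 spent 6 weeks without it and then 1 week with it again. Some values are also given for 7 early disease libraries, from (+/+) mice that spent 2 weeks without doxycycline. The age label of 8 to 12 weeks is the same in all these groups. What the comparison addresses is which microglial transcripts differ 1 week after doxycycline is returned to silence a neuronal TDP-43 transgene again. Doxycycline itself and the added week go with the group, so they cannot be told apart from the silencing in these 14 libraries.

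TDP-43 is a nuclear RNA-binding protein whose loss from the nucleus and deposition in the cytoplasm mark most cases of amyotrophic lateral sclerosis. Microglia are the resident macrophages of the spinal cord and clear debris and proteins released by dying motor neurons. Under homeostasis they express surface genes such as Tmem119, P2ry12 and Selplg, and around degenerating neurons they take on lipid-handling and phagocytic genes such as Apoe, Spp1 and Trem2. Neutrophils and monocytes carry the same sorting antigens, CD11b and CD45, and are normally kept in the blood and bone marrow.

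Expression is given as CPM, the RSEM count of a gene scaled to a TMM-adjusted library size. Totals were 16.1 to 20.4 M counts in recovery and 15.1 to 17.9 M in late disease, and genes with any count numbered 15939 to 16678 and 15814 to 17347. Itgam, which encodes CD11b, was at 1650 ± 269 and 1644 ± 219 CPM (SD, n = 7 each), and Csf1r, the receptor that microglia need to survive, was at 12598 CPM or more in each of the 14 libraries. Microglial markers were thus abundant in each library. All recovery libraries have the date code 0803. Late libraries have the codes 1019 (1 male), 1102 (3 females) and 1130 (3 males). Since no code is shared, what changed with recovery and what differed between dates cannot be told apart in any result below. LateDisease 6 stood apart on the first principal component, at −112 against −32.8 to 13.8 for the other late libraries, and it had the lowest late P2ry12 (1709 CPM) and Cx3cr1 (1171 CPM) and the highest C4b (1759 CPM). Mouse Tardbp was at 37.5 to 68.9 CPM in recovery and 36.4 to 151 CPM in late disease, which does not check the labels because the transgene is neuronal.

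Of 13501 genes tested, 79 (0.585%) differed between recovery and late disease at an adjusted p under 0.05 by edgeR's quasi-likelihood test with Benjamini-Hochberg adjustment. Of these, 46 were higher in recovery (0.341% of genes tested) and 33 were lower (0.244%). At an unadjusted p under 0.05 there were 983 higher (7.28%) and 1254 lower (9.29%). Of the higher genes 20 had a log2 change above 2 and 26 a smaller one, and 11 of the 46 belong to the neutrophil or monocyte list. The lower genes had a median log2 change of −0.79, and 9 of the 33 were lower by at least 1 on that scale. The groups did not overlap in 100 of all genes tested (0.741%), 56 higher (0.415%) and 44 lower (0.326%), and in 23 of the 79 called. DESeq2 called 191 higher (1.97%) and 235 lower (2.43%), together 4.4% of the 9684 genes with an adjusted p, and 63 of the 79 were among them. The calls lie close to the threshold. The last genes inside it were Cdk2ap2, 4933421O10Rik and Lcn2, each with an adjusted p of 0.0496 by edgeR, and the first outside were Topors (0.0501), Sp110 and Plac8 (0.0504 each). Leaving out 1 library at a time left between 5 and 114 genes higher and between 1 and 109 lower. Of the 79 genes, 6 were still called without Recovery 3, 7 without Recovery 9, 7 without LateDisease 1, 7 without LateDisease 3, 10 without Recovery 7, 21 without Recovery 2 and 21 without LateDisease 6. Without LateDisease 5 the counts were 114 and 109, without Recovery 4 they were 88 and 66, without LateDisease 4 the lower count was 67 and without Recovery 5 it was 21. The 5 genes called in all 14 of these fits were Chil1, S100a11, Hivep3, Hist1h2ap and CT010467.1, and the other 74 each lost the call in at least 1. In an edgeR fit of the 14 libraries alone, Hivep3 and CT010467.1 were still called (adjusted p = 0.0406 each). Chil1, S100a11 and Hist1h2ap were not (0.0627, 0.0624 and 0.114).

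**Figure D1:**
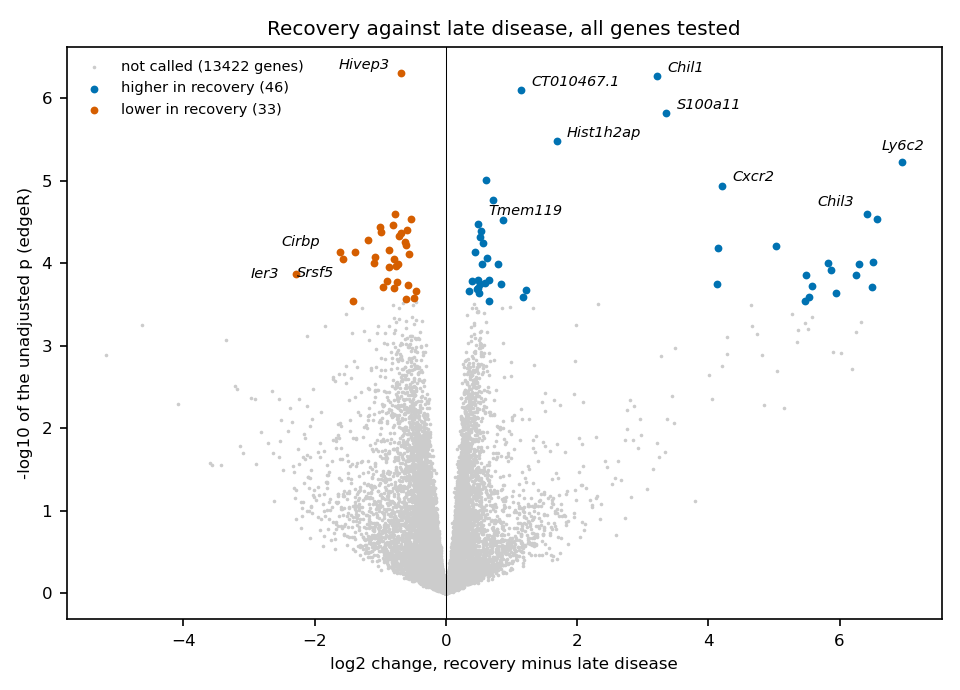
Log2 change of recovery minus late disease (x axis) against −log10 of the unadjusted edgeR p (y axis) for the 13501 genes tested, with the 46 higher genes in blue and the 33 lower genes in orange. The lower genes lie between −2.28 and −0.45, while 20 of the higher genes lie above 2.

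The 20 rises above 2 on the log2 scale included genes of the neutrophil and the monocyte list. Camp (ENSMUSG00000038357.10, chromosome 9, 109847379 to 109849617, mm10), which encodes the cathelicidin of neutrophil granules, was at 102, 444, 7.20, 42.6, 259, 14.3 and 384 CPM in Recovery 2, 3, 4, 5, 7, 8 and 9. In late disease it had no count in 5 libraries and was at 11.6 and 21.0 CPM in LateDisease 3 and 4. The groups overlapped, because Recovery 4 was below both of those late libraries. Camp rose by 6.29 ± 1.43 on the log2 scale (SE, adjusted p = 0.0311 by edgeR) and was called in 6 of the 14 fits that left out a library. Lcn2, the iron-withholding lipocalin of neutrophil granules, was at 9.90 to 331 CPM in recovery (median 85.5) and at 0 to 14.3 CPM in late disease (median 0), and rose by 5.48 ± 1.36 (adjusted p = 0.0496 by edgeR). DESeq2 did not call Lcn2 (adjusted p = 0.0812). Cxcr2 (chromosome 1, 74153989 to 74161246), the chemokine receptor that recruits neutrophils, was at 1.47 to 22.4 CPM in recovery (median 6.17) and 0.0564 to 1.27 CPM in late disease (median 0.479), without overlap, a rise of 4.20 ± 0.82 (adjusted p = 0.0194 by edgeR). Wfdc21 rose by 5.82 ± 1.32 and Pglyrp1, which encodes a granule protein that binds bacterial cell walls, by 5.58 ± 1.34. Ly6g, the classical neutrophil surface antigen, was at 0.531 to 41.9 CPM in recovery and 0 to 0.792 CPM in late disease. It rose by 6.49 ± 1.56 (adjusted p = 0.0412 by edgeR) and was called in 4 of the 14 fits that left out a library. Reads of Ly6g could be divided with near-identical Ly6 genes. In Wfdc21, Pglyrp1 and Ly6g the groups overlapped.

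Chil1 and S100a11 were called whichever single library was left out, but not in the fit of the 14 libraries alone. Chil1, which encodes a chitinase-like protein of neutrophil granules and of activated glia, was at 1.59 to 32.4 CPM in recovery (median 10.3) and at 0.564 to 1.78 CPM in late disease (median 1.58). Recovery 8 lay inside the late range. Chil1 rose by 3.21 ± 0.52 (adjusted p = 0.00363 by edgeR). S100a11, a calcium-binding protein found in many cell types, was at 3.50 to 58.2 CPM in recovery (median 14.7) and 1.16 to 3.84 CPM in late disease (median 2.87), and rose by 3.36 ± 0.58 (adjusted p = 0.00508 by edgeR).

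The most abundant neutrophil transcripts were not among the calls. Ngp, the neutrophilic granule protein gene, was at 41.3 to 2019 CPM in recovery (median 445) and at 0 to 105 CPM in late disease (median 0.120). Its log2 difference was 6.19 ± 1.85 with an adjusted p of 0.0913 by edgeR. S100a9, which forms calprotectin with S100a8, was at 37.9 to 1407 CPM against 0 to 57.3 CPM, a difference of 6.33 ± 1.66 (adjusted p = 0.0642 by edgeR). DESeq2 gave these genes an adjusted p of 0.0354 and 0.0263. Both were highest in Recovery 3 and 9, and Ngp was at 41.3 and 80.3 CPM in Recovery 4 and 8.

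**Figure D2:**
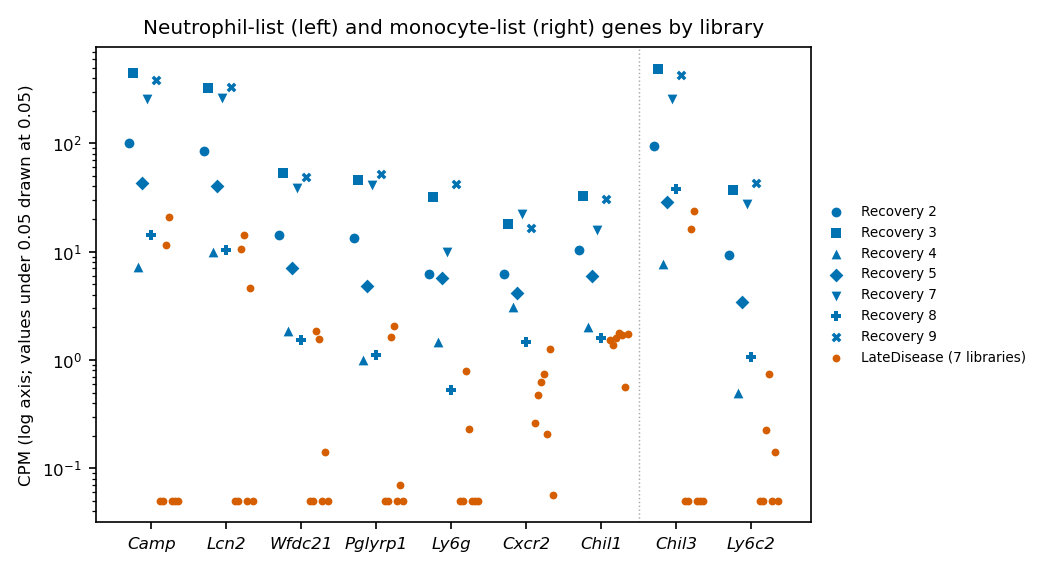
CPM (log axis) of 7 genes of the neutrophil list and 2 of the monocyte list in each library, with the 7 recovery libraries in blue by symbol and the 7 late libraries in orange, and values under 0.05 drawn at 0.05. Recovery 3, 7 and 9 are the highest for Camp, Lcn2 and Chil3, and Recovery 4 and 8 lie near or inside the late range.

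The amount of neutrophil transcript differed widely among recovery libraries. The 23 markers of the neutrophil list other than Csf3r, which microglia also express, summed to 7535, 6757 and 4632 CPM in Recovery 3, 9 and 7, to 1821 and 791 CPM in Recovery 2 and 5, and to 244 and 238 CPM in Recovery 8 and 4. In late disease the sums were 334, 181 and 98.6 CPM in LateDisease 4, 3 and 6 and 1.94 to 3.42 CPM in the other 4 libraries. Recovery 4 and 8 were thus below LateDisease 4. In LateDisease 6 most of the sum came from Lrg1, at 79.8 CPM, while S100a8 was at 2.61 CPM and Camp and Ltf had no count. At the highest, in Recovery 3, the counts of these genes came to 0.753% of the TMM-adjusted library size. In early disease and control libraries the sums were 1.21 to 346 and 0.600 to 365 CPM, with medians of 3.56 and 3.29. The azurophil granule genes of immature neutrophils, Elane, Mpo and Prtn3, had 237, 150 and 63 counts in total in recovery and no count in any late library, where a count of 0 allows up to 3 counts per library (0.168 to 0.199 CPM of the unadjusted library size), a limit that covers counting error only. They were highest in Recovery 2 and 3 and did not pass the filter on low counts. In bulk samples of sorted cells, more cells of a type and more RNA per cell cannot be told apart.

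Of 24 neutrophil markers listed, 19 passed the filter on low counts and 8 rose by edgeR, against 0.341% of all genes tested. DESeq2 called 7 and limma 17, and 17 were higher at an unadjusted p under 0.05, with a median log2 change of 5.53 against −0.03 over all genes. The genes that passed did so mainly through the recovery libraries, and the list was chosen with earlier results of these data known. These counts and this median are therefore a description only, and the share of all genes is not a like background for them. Of 17 monocyte markers, 14 passed and 4 rose by edgeR (DESeq2 1, limma 6), with a median of 1.88. Ly6c2 (chromosome 15, 75108158 to 75111970), which encodes the Ly6C antigen of inflammatory monocytes and has a near-identical copy in Ly6c1, was at 0.500 to 43.0 CPM in recovery (median 9.38) and 0 to 0.745 CPM in late disease, and rose by 6.95 ± 1.31 (adjusted p = 0.0135 by edgeR). Chil3, a chitinase-like gene of monocytes and neutrophil precursors, was at 7.75 to 490 CPM against 0 to 23.6 CPM and rose by 6.42 ± 1.32. Ccr2, the chemokine receptor of monocytes, differed by 1.73 ± 0.58 (adjusted p = 0.122 by edgeR) and Ms4a4c by −0.02 ± 0.37 (adjusted p = 0.989). The fitted changes of genes with no count in most late libraries, such as Camp, Chil3 and Ly6c2, depend on the small count that the fit adds.

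Promoter sequence was read for the neutrophil genes, since C/EBP factors are known to switch on granule genes during neutrophil maturation. The letters TTGCNNAA, a C/EBP-type motif, or TTNNGCAA on the other strand, were searched for in windows from 250 bases before to 50 after each gene's start in RefSeq (GRCm38.p6). They occurred in 10 of the 34 neutrophil and monocyte list genes with a window (29.4%) and in 12.2% of the 27025 genes in the table. Of the 8 such genes called higher with a window, Lcn2 and Ly6g held them, Ly6g in 1 of its 2 windows. A match describes the letters and shows no binding. The windows of Lcn2, which holds the motif 216 bases before its start, and Camp, which does not, are printed on the gene's strand with the motif in capitals.
Lcn2, chr2:32387690-32387989, minus strand: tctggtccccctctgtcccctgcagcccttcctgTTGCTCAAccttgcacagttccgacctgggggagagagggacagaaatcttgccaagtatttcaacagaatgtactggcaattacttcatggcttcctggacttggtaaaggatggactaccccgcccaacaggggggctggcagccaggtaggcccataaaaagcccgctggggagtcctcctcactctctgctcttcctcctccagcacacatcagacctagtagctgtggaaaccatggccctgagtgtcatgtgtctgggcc
Camp, chr9:109849407-109849706, minus strand: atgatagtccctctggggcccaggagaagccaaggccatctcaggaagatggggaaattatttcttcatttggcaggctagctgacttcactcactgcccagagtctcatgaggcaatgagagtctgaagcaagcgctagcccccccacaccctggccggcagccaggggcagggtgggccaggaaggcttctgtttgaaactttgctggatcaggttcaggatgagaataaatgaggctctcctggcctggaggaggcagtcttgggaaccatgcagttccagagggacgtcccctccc

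Genes of resting microglia were among the 26 smaller rises. Tmem119 (ENSMUSG00000054675.5, chromosome 5, 113793729 to 113800516), a surface protein specific to microglia, was at 6213 to 8154 CPM in recovery (median 6747) and 3027 to 5906 CPM in late disease (median 5141). Each recovery library was above each late library. Tmem119 rose by 0.49 ± 0.10 (adjusted p = 0.0280 by edgeR), and controls were at 8226 ± 859 CPM (SD, n = 14). Selplg, the P-selectin ligand enriched in microglia, lies next to Tmem119 on chromosome 5 (113818536 to 113832644) and rose by 0.40 ± 0.09 (adjusted p = 0.0405 by edgeR). It was at 6259 to 7794 CPM in recovery and 3741 to 6895 CPM in late disease, and only LateDisease 5 reached the recovery range. Klf2, a transcription factor known to hold myeloid cells in a quiescent state, was at 28.2 to 63.8 CPM in recovery (median 46.0) and 8.37 to 28.1 CPM in late disease (median 17.1), without overlap. Klf2 rose by 1.23 ± 0.30 (adjusted p = 0.0425 by edgeR), against 71.3 ± 27.9 CPM in controls. Leaving out 1 library at a time moved the change of Tmem119 between 0.40 and 0.55, that of Selplg between 0.33 and 0.47 and that of Klf2 between 1.07 and 1.33, and 9, 6 and 5 of the 14 fits called them. The lowest values of Tmem119 and Selplg were without LateDisease 6.

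Of 29 homeostatic genes listed and tested, Tmem119 and Selplg were the 2 called by edgeR, against 0.341% of all genes called higher. At an unadjusted p under 0.05, 7 were higher and 0 lower, against 7.28% and 9.29% of all genes, and the median log2 change was 0.17. DESeq2 called 3 of the list, with Rhob added, and limma on log2(TPM + 1) called 0, with an adjusted p of 0.0896 for Tmem119 and 0.229 for Selplg. P2ry12, the purinergic receptor that steers microglial processes, was at 5439 to 8139 CPM in recovery and 1709 to 6523 CPM in late disease, a difference of 0.31 ± 0.17 (adjusted p = 0.359 by edgeR). Cx3cr1, the fractalkine receptor, differed by 0.32 ± 0.18 (0.366). By edgeR, Rhob, a GTPase, differed by 0.65 ± 0.20 (0.0941), and Csf1r by −0.08 ± 0.09 (0.717).

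Several other smaller rises, chosen after their values were seen and not tested as groups, were in tubulin, secretory and mitochondrial genes. Tuba1a, an alpha-tubulin, was at 240 to 414 CPM in recovery (median 367) and 85.4 to 291 CPM in late disease (median 233), overlapping through Recovery 4, and rose by 0.80 ± 0.18 (adjusted p = 0.0311 by edgeR). The beta-tubulin gene Tubb4b rose by 0.72 ± 0.15, the intermediate filament gene Vim by 1.18 ± 0.29 and Mzt2, a component of the gamma-tubulin ring, by 0.59 ± 0.14. Tubulin genes have near-identical copies, and their estimated counts carry that uncertainty. Atg101, a subunit of the kinase complex that starts autophagy, was at 42.8 to 58.3 CPM against 24.9 to 39.8 CPM without overlap and rose by 0.62 ± 0.12 (adjusted p = 0.0192 by edgeR). Slc15a4, a lysosomal transporter needed for signalling by endosomal Toll-like receptors, rose by 0.56 ± 0.12, and Cebpd, a C/EBP transcription factor, by 0.52 ± 0.11 (adjusted p = 0.0295 and 0.0287 by edgeR). Srprb, the beta subunit of the signal recognition particle receptor, rose by 0.44 ± 0.10 and the vesicle cargo gene Tmed3 by 0.52 ± 0.12. Sdf2, an endoplasmic reticulum protein, rose by 0.62 ± 0.14 and Creb3, a transcription factor tethered to that membrane, by 0.35 ± 0.08. The mitochondrial translation factor Tufm rose by 0.47 ± 0.11 and the import chaperone Timm13 by 0.51 ± 0.12.

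The histone genes called were Hist1h2ap and H2afx. Hist1h2ap, one of many near-identical H2A genes, was at 11.4 to 46.5 CPM in recovery (median 22.9) and 2.47 to 17.7 CPM in late disease (median 7.78), and rose by 1.69 ± 0.31 (adjusted p = 0.00889 by edgeR). LateDisease 4 lay inside the recovery range. H2afx, the H2A variant that marks broken DNA, was at 17.2 to 37.6 CPM against 8.35 to 14.9 CPM without overlap and rose by 0.85 ± 0.20. No gene of the mitosis list (25 tested) or of the DNA replication list (25 tested) was called by edgeR, while 3 and 4 had higher levels and 0 in each had lower levels at an unadjusted p under 0.05, against 7.28% and 9.29% of all genes. Their medians were 1.15 and 0.38, and DESeq2 called 1 and 0. Mki67, the standard marker of cycling cells, was at 2.37 to 35.5 CPM in recovery and 0.946 to 14.3 CPM in late disease, with the highest value in Recovery 2.

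**Figure D3:**
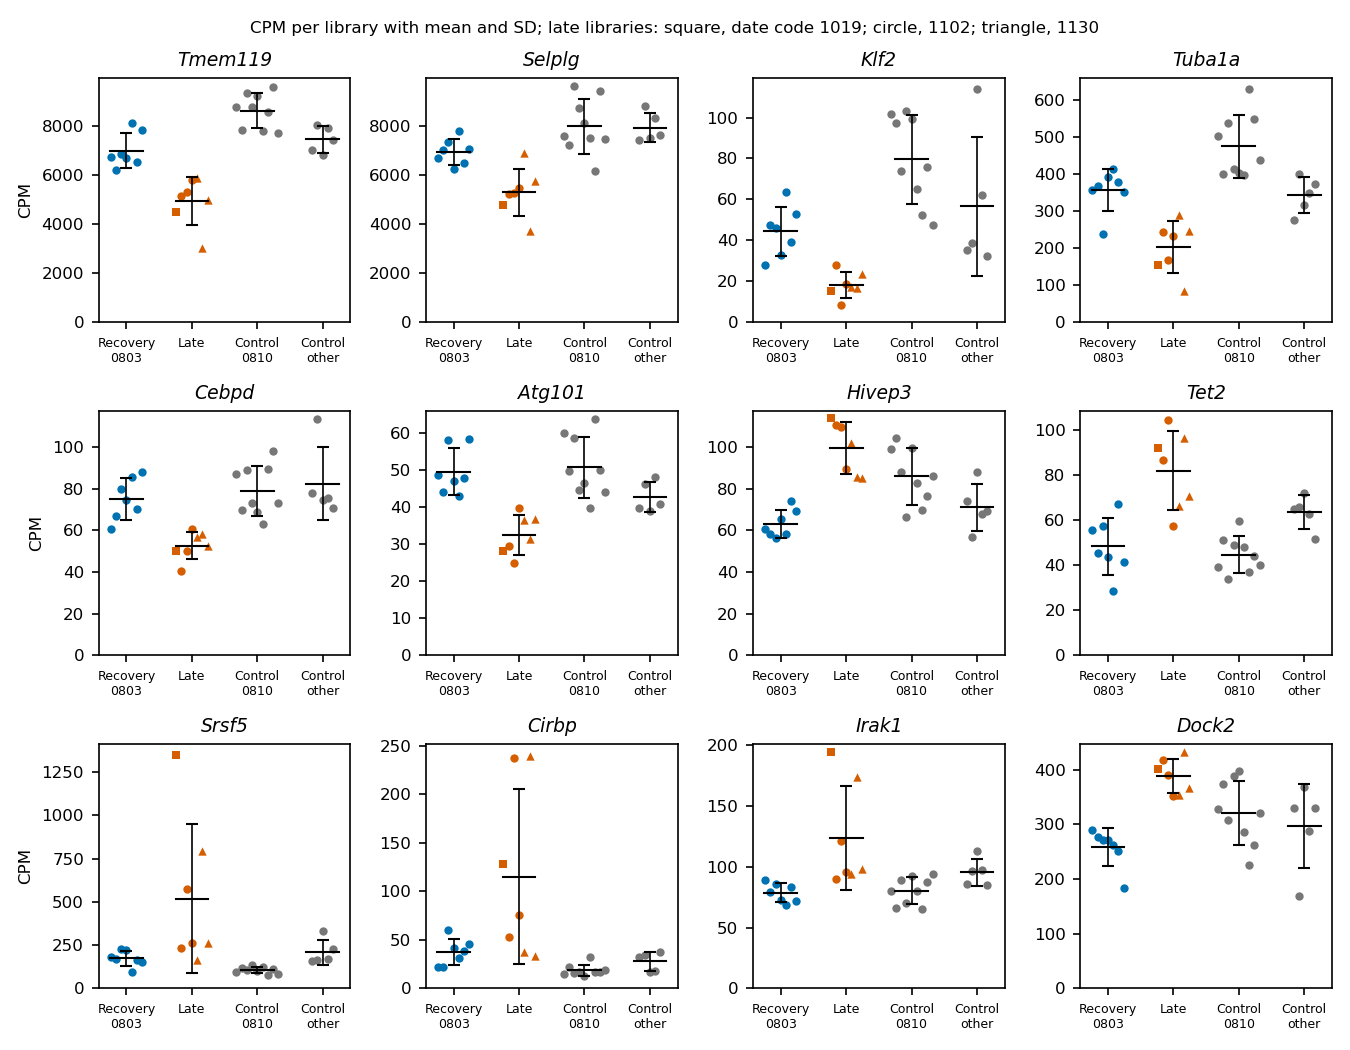
CPM of 12 called genes in each library of recovery, late disease, controls of date code 0810 and controls of other dates, with mean and SD as bars and late libraries marked by date code. Tmem119, Klf2 and Atg101 are higher in every recovery library than in every late library, and Hivep3, Irak1 and Dock2 are lower.

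One of the 5 genes called in each fit that left out a library was not a messenger RNA. CT010467.1, annotated as a ribosomal RNA gene (chromosome 17, 39846353 to 39848827), was at 2741 to 4469 CPM in recovery (median 3066) and 693 to 2238 CPM in late disease (median 1532), without overlap. It rose by 1.14 ± 0.19 (adjusted p = 0.00365 by edgeR). Annotated ribosomal RNA took 0.273 to 0.409% of counts in recovery, 0.0790 to 0.219% in late disease, 0.115 to 0.187% in early disease, 0.219 to 0.323% in the 9 controls of date code 0810 and 0.131 to 0.201% in the 5 controls of other dates. The share of TPM outside the deposited table was 4.09 to 8.86% in recovery and 2.32 to 4.58% in late disease. These shares moved with the groups, and with that TPM share in the model 50 genes were higher and 45 lower, 74 of the 79 among them. Their part in the results was not otherwise tested.

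Among the 33 genes that fell, some that bind or process RNA are described first; they were chosen after the values were seen and not tested as a group. Srsf5 (chromosome 12, 80945504 to 80950507), a splicing factor of the serine-arginine family, was at 96.3 to 227 CPM in recovery (median 168) and 165 to 1347 CPM in late disease (median 263). The late values were spread widely, with 1347, 794 and 575 CPM in LateDisease 1, 6 and 3 and 263 CPM or less in the other 4. Srsf5 fell by 1.57 ± 0.35 on the log2 scale (adjusted p = 0.0311 by edgeR), and without LateDisease 1 the change was −1.14 (0.109). Cirbp, the cold-inducible RNA-binding protein gene, was at 37.0 ± 13.4 CPM against 115 ± 90.2 CPM (SD, n = 7 each), highest in LateDisease 6 and 3, and fell by 1.61 ± 0.36 (adjusted p = 0.0304 by edgeR).

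Rbm25, a splicing regulator, fell by 0.73 ± 0.17, the nuclear speckle proteins Srrm2 and Son by 0.61 ± 0.13 and 0.48 ± 0.12, and the exonuclease Xrn2 by 0.58 ± 0.14. In Son and Srrm2 the highest late values were again in LateDisease 1 (468 and 567 CPM) and LateDisease 6 (378 and 392 CPM). Tet2, the DNA hydroxymethylase, fell by 0.76 ± 0.17, the acetyltransferase scaffold Trrap by 0.75 ± 0.18, the histone reader Brpf1 by 0.79 ± 0.19, Nfrkb of the INO80 remodelling complex by 1.00 ± 0.21 and Mgea5, which removes O-GlcNAc from proteins, by 0.71 ± 0.15. The DNA repair genes Uvssa and Rev1 fell by 1.39 ± 0.31 and 0.90 ± 0.21. These genes too were chosen after the values were seen.

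Hivep3 (ENSMUSG00000028634.14, chromosome 4, 119733784 to 120138045), a large zinc finger protein that binds NF-kB-type sites, was at 56.2 to 73.8 CPM in recovery (median 60.6) and 84.9 to 114 CPM in late disease (median 102). No libraries overlapped. Hivep3 fell by 0.68 ± 0.11 and had the smallest p of all genes that were lower (adjusted p = 0.00363 by edgeR), with 80.6 ± 14.3 CPM in controls. Dock2, the exchange factor that activates Rac in migrating leukocytes, was at 184 to 290 CPM against 352 to 433 CPM without overlap and fell by 0.59 ± 0.13 (0.0280). Irak1, the kinase downstream of Toll-like and interleukin-1 receptors, was at 68.8 to 89.4 CPM against 90.3 to 194 CPM without overlap and fell by 0.62 ± 0.13 (0.0295). Rapgef1 and Ralgds, exchange factors for small GTPases, fell by 0.69 ± 0.15 and 1.19 ± 0.26.

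Ier3, an early response gene that shields cells from apoptosis, had the largest fall among the genes called, 2.28 ± 0.53 (adjusted p = 0.0371 by edgeR). It was at 4.65 to 8.21 CPM in recovery and at 135 and 47.1 CPM in LateDisease 6 and 3 but at 6.36 to 13.2 CPM in the other 5 late libraries. Without LateDisease 6 the change was −1.18 (adjusted p = 0.166 by edgeR). Of the 24 immediate early genes tested, Klf2 rose and Ier3 fell, against 0.341% and 0.244% of all genes. At an unadjusted p under 0.05, 7 were lower and 1 higher, against 9.29% and 7.28% of all genes, and the median was −0.32. Socs3 and Dusp1, feedback inhibitors of cytokine and kinase signalling, were at 863 and 510 CPM in LateDisease 6 and at most 61.8 and 22.1 CPM in the other late libraries, and differed by −1.72 ± 0.53 (0.0982) and −2.08 ± 0.75 (0.150). Ifitm10 fell by 0.95 ± 0.23 and Fnbp4 by 1.09 ± 0.25.

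No gene of disease-associated microglia was called. Of 30 tested, 0 were called, 2 were higher and 1 was lower at an unadjusted p under 0.05, against 7.28% and 9.29% of all genes, and the median was 0.24. DESeq2 and limma called 0. Csf1, a growth factor for microglia themselves, was at 50.6 to 120 CPM in recovery (median 81.4) and 54.1 to 140 CPM in late disease (median 113), a difference of −0.28 ± 0.27 (adjusted p = 0.645 by edgeR). Controls were at 18.5 ± 8.05 CPM. Spp1, which encodes osteopontin, was at 306 to 1166 CPM and 224 to 1026 CPM, a difference of 0.59 ± 0.51 (0.608), with 54.2 ± 36.1 CPM in controls. Apoe, the lipid carrier, was at 1034 to 3234 CPM in recovery and 695 to 11142 CPM in late disease, where LateDisease 6 was highest. Its difference was −0.43 ± 0.69, and 0.18 without that library. Trem2, the lipid-sensing receptor, and Lgals3, which encodes galectin 3, differed by 0.34 ± 0.14 (0.189) and 0.72 ± 0.37 (0.326). The standard errors leave differences of this size undecided.

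Interferon, circadian and antigen presentation genes likewise had few or no calls. Of 32 interferon response genes 0 were called by edgeR, and 7 were lower and 0 higher at an unadjusted p under 0.05, against 9.29% lower and 7.28% higher over all genes tested, and the median was −0.46. Ifih1, the sensor of long double-stranded RNA, was at 11.3 to 30.2 CPM in recovery and 22.3 to 29.8 CPM in late disease (−0.51 ± 0.17, adjusted p = 0.119 by edgeR). Cxcl10, a chemokine induced by interferon, was at 0.550 to 19.0 CPM and 7.64 to 20.8 CPM (−1.33 ± 0.71, 0.349). Of 16 circadian clock genes 0 were called by edgeR, and 9 were lower and 1 higher at an unadjusted p under 0.05, against the same 9.29% and 7.28%, and the median was −0.47. Per2, a repressor of the clock, was at 1.31 ± 1.59 CPM against 6.54 ± 4.39 CPM (−2.40 ± 0.89, 0.160). The labels do not state the hour at which tissue was taken. Among 15 class II genes 0 were called, and H2-Ab1 and Cd74 differed by 1.01 ± 0.35 (0.135) and 0.54 ± 0.29 (0.344). DESeq2 called 0 genes of these 3 lists.

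**Figure D4:**
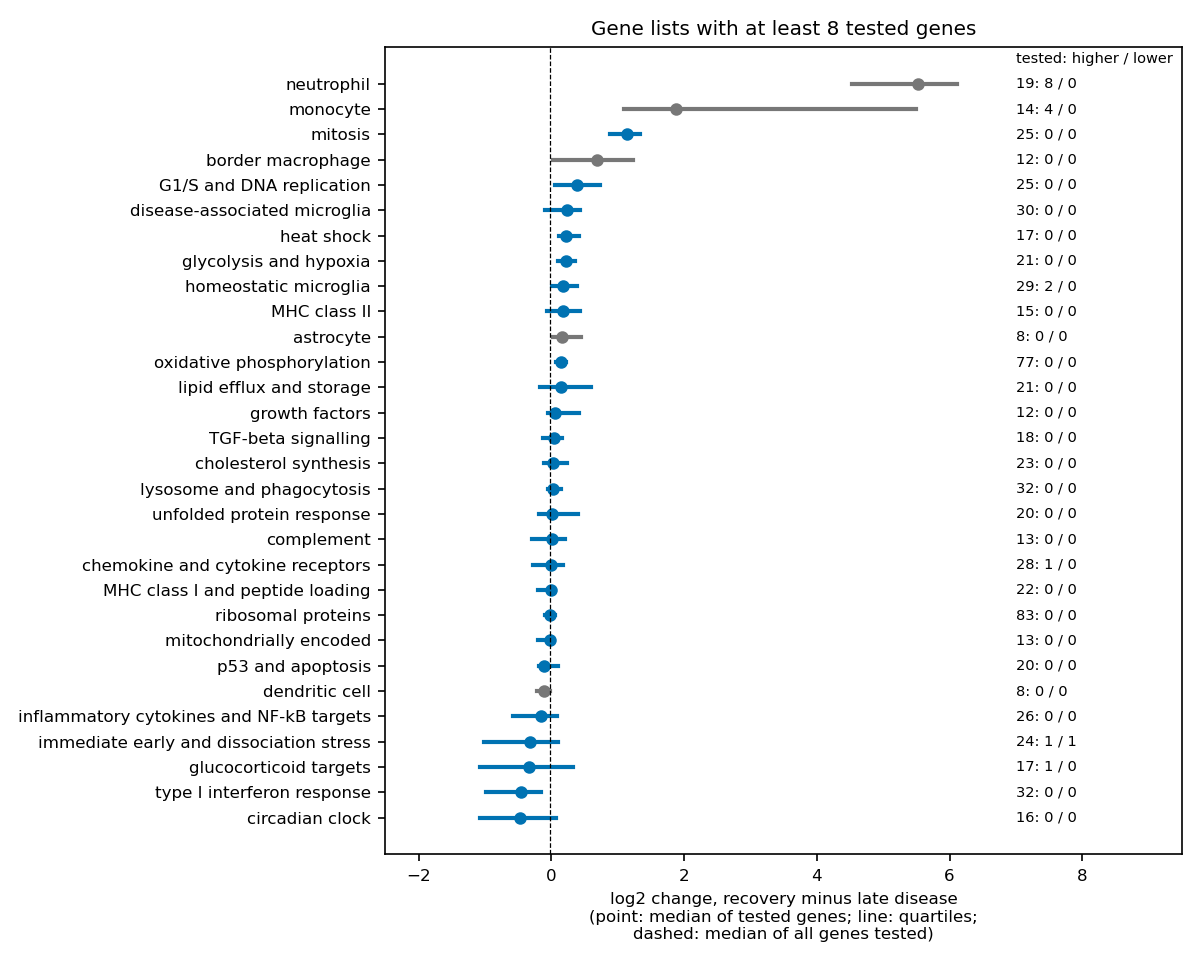
Median (point) and quartiles (line) of the log2 change, recovery minus late disease, of the genes tested in each list, blue for cell states and grey for markers of other cells, with the numbers tested, higher and lower at the right. The neutrophil and monocyte medians, 5.53 and 1.88, are the 2 highest, and the circadian and interferon medians, −0.47 and −0.46, are the 2 lowest among lists with at least 8 genes tested.

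Stress and energy lists had small medians. Of 17 heat shock genes 0 were called by edgeR and 3 by DESeq2, and 4 were higher at an unadjusted p under 0.05, among them Dnaja1 (0.48 ± 0.15, adjusted p = 0.102 by edgeR). Of 20 genes of the unfolded protein response 0 were called by edgeR and 1 by DESeq2. Here 7 were higher and 3 lower at an unadjusted p under 0.05. The chaperone partners Sdf2l1 (0.62 ± 0.19) and Dnajb9 (0.47 ± 0.16) were among the higher. The stress sensors Ern1 (−0.49 ± 0.18) and Atf6 (−0.50 ± 0.19) were among the lower. Atf6 was at 273 CPM in LateDisease 6 and 101 to 118 CPM in the other late libraries, against 78.7 to 117 CPM in recovery. Of 77 nuclear oxidative phosphorylation genes 0 were called by edgeR or DESeq2, 14 were higher and 0 lower at an unadjusted p under 0.05, and the median was 0.15. Over all genes tested, 7.28% were higher and 9.29% lower at that p. Ribosomal protein and mitochondrially encoded genes had medians of −0.02 each.

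Marker lists of other cells differed in how much of them was found. Cldn5 of endothelium and Cd3e of T cells had no count in any of the 14 libraries, but other genes of their lists were found. The endothelial list summed to 19.6 to 54.6 CPM in recovery and 10.1 to 46.3 CPM in late disease. The T and NK cell list summed to 33.2 to 126 CPM in recovery and 6.13 to 81.5 CPM in late disease. Gfap and Aqp4 of astrocytes reached at most 3.47 and 0.551 CPM. The astrocyte list summed to 1031 to 2722 CPM in recovery and 182 to 2732 CPM in late disease, nearly all from Slc1a3, a glutamate transporter gene, at 1019 to 2712 and 173 to 2723 CPM. The oligodendrocyte list summed to 2071 to 2864 CPM in recovery and 2120 to 5271 CPM in late disease, most of it from the transferrin gene Trf, which reached 5122 CPM in LateDisease 6. Mbp, the myelin basic protein gene, was at 55.1 to 84.2 CPM in recovery and 45.0 to 79.1 CPM in late disease (0.16 ± 0.15, adjusted p = 0.621 by edgeR). None of the 6 oligodendrocyte and 8 astrocyte genes tested was called by edgeR, DESeq2 or limma, and none had an unadjusted p under 0.05. Their part in the results was not tested. The border macrophage list summed to 143 to 294 CPM in recovery and 176 to 748 CPM in late disease, highest in LateDisease 6, and 0 of its 12 tested genes were called by edgeR and 1 by DESeq2. Mrc1 and Cd163, its defining genes, reached 12.9 and 6.43 CPM in recovery and 4.18 and 1.20 CPM in late disease. Haemoglobin and other erythroid genes summed to 97.2 CPM in Recovery 3 and to at most 0.656 CPM in the other recovery libraries. In late disease they summed to at most 3.83 CPM. The medians were 0.295 CPM in recovery and 0.539 CPM in late disease.

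The neutrophil list had the most calls of the marker lists of other cells. With the mean log2 CPM of the neutrophil markers as a term in the model, a choice made after the data were seen, 0 genes were called and 1724 had an unadjusted p under 0.05. The 26 smaller rises then had a median of 0.70 in place of 0.57 and the 33 falls a median of −0.85 in place of −0.79. The term itself differed between the groups, at 2.24 to 7.11 in recovery and −2.07 to 2.57 in late disease. The median SE over all genes was 0.287 in place of 0.209. Whether the smaller changes came with neutrophil content was thus not tested by these medians. Nothing can be read from the 20 large rises in this fit, since the term is itself made of the markers to which several of them belong. Tmem119 was at 0.59 in place of 0.49, Klf2 at 1.39 and Hivep3 at −0.59, with adjusted p of 0.123 to 0.160 by edgeR.

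Recovery was also set against each of the late date codes 1102 and 1130 separately, which leaves date and group confounded as before, and sex too on the late side. Against the 3 females of code 1102, 4 genes were higher and 0 lower, and against the 3 males of code 1130, 0 were higher and 4 lower. Tmem119 was at 0.39 and 0.57 in these 2 fits, Klf2 at 1.42 and 1.01, Hivep3 at −0.65 and −0.61, Cirbp at −1.82 and −1.33 and CT010467.1 at 0.89 and 1.20. Both fits share the recovery libraries, so like signs in them are no separate evidence. The difference between the sexes in the recovery change was tested as an interaction on the 14 libraries. Late females all have code 1102 and late males have code 1019 or 1130, so sex and date code cannot be told apart in it. Of 12498 genes, 0 were called by edgeR and 20 by DESeq2, and 361 had an unadjusted p under 0.05.

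**Figure D5:**
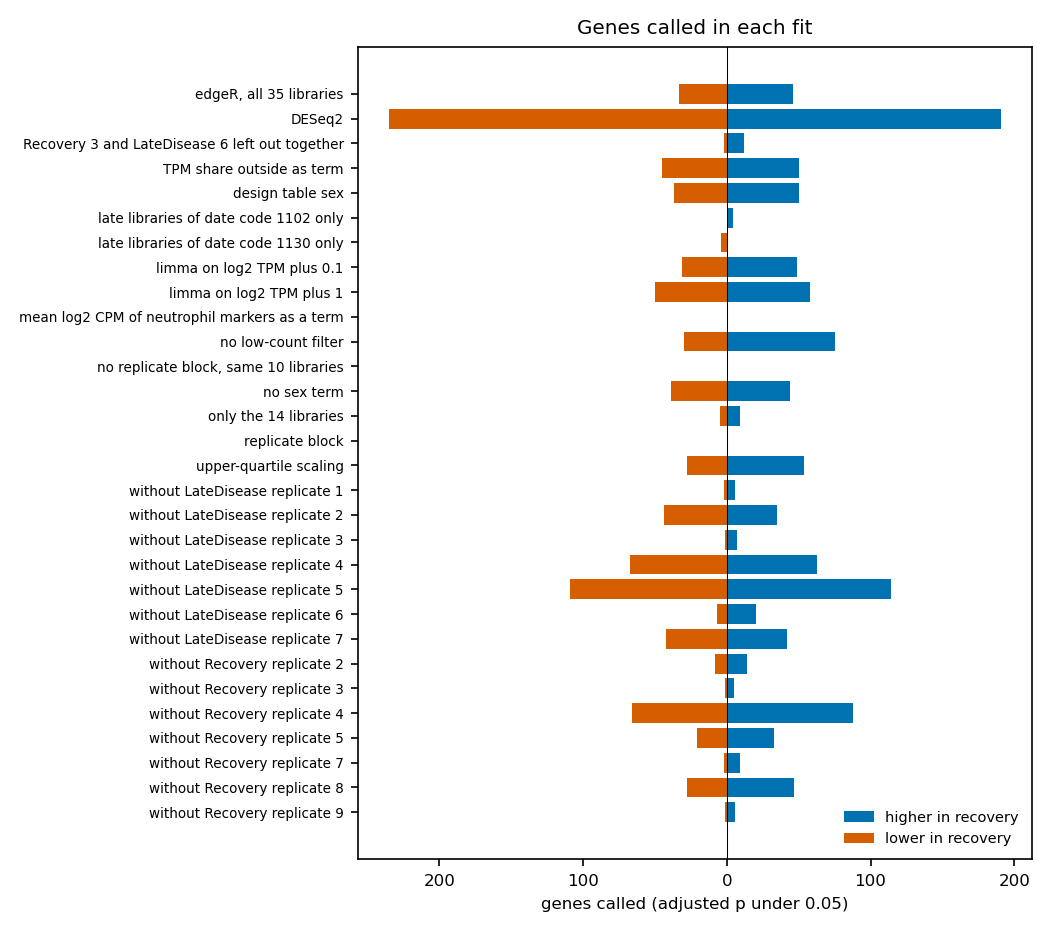
Genes called at an adjusted p under 0.05 (x axis), higher in recovery to the right in blue and lower to the left in orange, for each fit (y axis). The fit of all 35 libraries has 46 and 33, and fits that leave out 1 library range from 5 to 114 and from 1 to 109.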

How the data were processed

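Microglia had been sorted on CD11b and CD45 from spinal cord after a Percoll gradient, with dead cells excluded, per the labels' protocols. Full-length low-input and transposase kits, which do not mark strand, were used. The authors deposited expected counts and TPM per gene for 35 libraries. RSEM, DESeq2 and mm10 are named per the submitters' processing notes (versions: not given in the sources used here). Of 45706 genes, 45143 matched a symbol, and 84.67% of counts were whole within 1e-06. All counts were rounded, and no column was left unmapped.

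The test was that of edgeR 4.0.16 under R 4.3.3 (quasi-likelihood F test, TMM, low-count filter by group, model of group and sex as labelled) over all 35 libraries, which share 1 estimate of the spread. SE values come from the F statistic. Alternatives were DESeq2 1.42.0, limma 3.58.1 on log2 values of TPM, with 1 or 0.1 added, for genes reaching a TPM of 1 in 6 libraries, other scaling, filter, sex, date and replicate choices, and each library left out. The 42 pairs of libraries within groups differed by far more than counting noise. Labels do not name the mouse behind each library, so p-values measure the spread between libraries. Named genes were the 10 largest called changes in each direction with at least 10 CPM, up to 3 called genes per list plus 1 in the other direction, and fixed anchor genes; others were named after seeing values. The edgeR fit of all 35 libraries was also run on simulated data, and the outcome is not reported here and lends the results no support. Members and the 38 gene lists were chosen with earlier results of these data known. Some called or listed genes are counted but not reported by name here.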

Additional observations from a re-analysis of the deposited data

Results flagged for a closer look

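In 18 of 210 groups examined (the named genes and 2 library measures, each in recovery and in late disease) the highest or lowest of 7 libraries lay far from the other 6. For normally distributed values chance flags about 1 in 20 groups. CPM values need not have that spread, and many of the genes were chosen from these same values. The 18 of 210 therefore cannot be set against that rate. LateDisease 6 accounted for 7 of the 18. It was low for Tmem119 (3027 CPM, others at least 4516), P2ry12 (1709 CPM), Cx3cr1 (1171 CPM), H2-Aa (0.845 CPM), Chil1 (0.564 CPM) and Mzt2 (13.9 CPM). It was also high for C4b, a complement gene with a close paralog, at 1759 CPM against at most 55.3 CPM in the others. LateDisease 1 was high for Tardbp (151 CPM, others at most 64.7). LateDisease 4 was the single late library with I830127L07Rik (0.860 CPM).

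Among recovery libraries, Recovery 7 was low for Ifitm10 (7.60 CPM) and for H2-Aa (8.04 CPM, others at least 29.7). Recovery 9 was low for Dock2 (184 CPM) and Vps8 (27.3 CPM), and Recovery 3 for Cyb561d2 (34.0 CPM). Recovery 4 was low for Tuba1a (239.8 CPM) and high for Son (269 CPM) and the pseudogene Tmem181b-ps (26.0 CPM). Recovery 2, which also had the highest Mki67, was high for H2afx (37.6 CPM, others at most 20.9).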

How the results depend on the processing

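Against 46 genes higher and 33 lower, DESeq2 called 191 and 235, and limma on log2 TPM plus 1 called 58 and 50, with the median of all genes at −0.12 in place of −0.03 (−0.14 with plus 0.1). A fit of the 14 libraries alone called 9 and 5, and no low-count filter 75 and 30. Late libraries of code 1102 alone gave 4 and 0, and of code 1130 alone 0 and 4. Without Recovery 3 and LateDisease 6 together, chosen after seeing the data, the counts were 12 and 2. Leaving out single libraries gave 5 to 114 and 1 to 109, and 0 to 10 for the sex interaction, for which DESeq2 gave 20. The labels state no pairing of samples by replicate number. Over 5 shared numbers, correlations of deviations were −0.20 to 0.12, and 2 of 5 were best with their own number. So few numbers cannot decide whether samples were paired. A replicate block over those 10 libraries called 0 and 0 (1192 at an unadjusted p under 0.05), as did the same libraries with no block (1357). With the neutrophil marker mean as a term, 0 and 0 were called and 7 changes reversed, several in genes of the list that makes the term: Camp −0.083, Wfdc21 −0.0034, Pglyrp1 −0.25, Hp −0.84, Lcn2 −1.14, Fpr1 −0.18 and I830127L07Rik −0.91. The cause of these shifts was not tested, beyond the fewer libraries in several fits. Upper-quartile scaling, no sex term and the design table's sex stayed within 1.5 times on both counts. At this depth, fold changes of genes at or near 0 in late disease are imprecise.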
